A study of Homo sapiens with 10 samples.

Results

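Keratin genes (KRT) and keratin-associated protein genes (KRTAP) were examined for summits of WDR5 and of tagged EMBOW in HEK293T cells. The set was taken from the RefSeq gene table of assembly GRCh38.p14 as the protein-coding genes whose symbol is KRT or KRTAP followed by a number, and it held 149 of the 19884 protein-coding genes on the assembled chromosomes. Of these, 55 were KRT genes and 94 were KRTAP genes, and all lay on chromosomes 11 (11 genes), 12 (27), 17 (62) and 21 (49). The study precipitated chromatin from HEK293T, a human embryonic kidney line, after digestion of nuclei with micrococcal nuclease, and sequenced the DNA (ChIP-seq). WDR5 is a core subunit shared by the MLL and SET1 complexes, which methylate histone H3 on lysine 4, and EMBOW is a microprotein whose knockout (KO) was compared with wild type (WT). The groups used were anti-WDR5 ChIP from EMBOW KO cells, anti-FLAG ChIP from HEK293T cells stably expressing tagged EMBOW (EMBOW-F here), and anti-WDR5 ChIP from WT cells. Each group was 1 library, so no value below has a replicate check or a p-value. Whether the KO line is a clone and which promoter drives tagged EMBOW were not given in the sources used here. No list measures RNA or protein, so neither the cell type nor the expression of a keratin was checked.

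Keratins are the intermediate filament proteins of epithelial cells. A filament is built from pairs of an acidic type I keratin and a basic type II keratin, and each kind of epithelium is known for its own pairs. Keratins 8 (type II) and 18 (type I) pair in simple epithelia such as that of kidney tubules, keratins 5 and 14 in the basal layer of stratified epithelia, and keratins 1 and 10 in the upper layers of the epidermis. KRTAP proteins fill the matrix between hair keratin filaments and are grouped as high-sulfur, ultrahigh-sulfur and high glycine-tyrosine proteins. Type I keratins other than KRT18 lie in a cluster on chromosome 17 together with many KRTAP genes, type II keratins lie on chromosome 12 beside KRT18, and the other KRTAP genes lie on chromosomes 11 and 21.

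The KO list held 21055 summits, the EMBOW-F list 93143 and the WT list 17660. Each summit is a single base with the −log10 q value given to it by the authors' peak caller. The median −log10 q was 6.28 in KO, 3.25 in EMBOW-F and 6.53 in WT. Summit lists give no read counts, so the depth of the libraries is unknown and list lengths are not compared. A gene with a summit within 1 kb of either of its ends is called marked.

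Nearly all keratin and KRTAP genes lacked WDR5 summits at their ends in KO and in WT cells. KRT8, KRT18 and KRT10 were marked in KO, and the same 3 genes were marked in WT. That is 2.01% of the 149 genes in KO (exact 95% interval 0.417 to 5.77%), against 53.8% of all protein-coding genes, and 2.01% in WT (0.417 to 5.77%), against 50.3% of all protein-coding genes. These intervals cover counting error only, and neighbouring genes are not independent draws. The 3 genes rested on 2 summits in each genotype, because KRT8 and KRT18 shared theirs. None of the 149 genes was marked in KO and not in WT, where the share over all protein-coding genes was 7.03%, and none had a summit in WT alone, where that share was 3.54%. With only 3 genes marked in each genotype, these absences say little about a difference between the genotypes. All 3 marked genes were marked in both genotypes, as were 46.8% of all protein-coding genes. EMBOW-F summits marked 1 of the 149 genes, KRTAP8-1, which is 0.671% (0.0170 to 3.68%), against 1.40% of all protein-coding genes. Counting the 5′ end alone, for genes whose strand is known, 1 of 114 members was marked in KO (KRT8), 1 in EMBOW-F (KRTAP8-1) and 1 in WT (KRT8), against 54.2%, 0.972% and 50.9% of 15843 protein-coding genes. The 5′ end here is the outer end of the RefSeq gene, which for KRT8 differs from the start of its promoter window, and no WDR5 summit lay within 1 kb of that start.

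**Figure D1:**
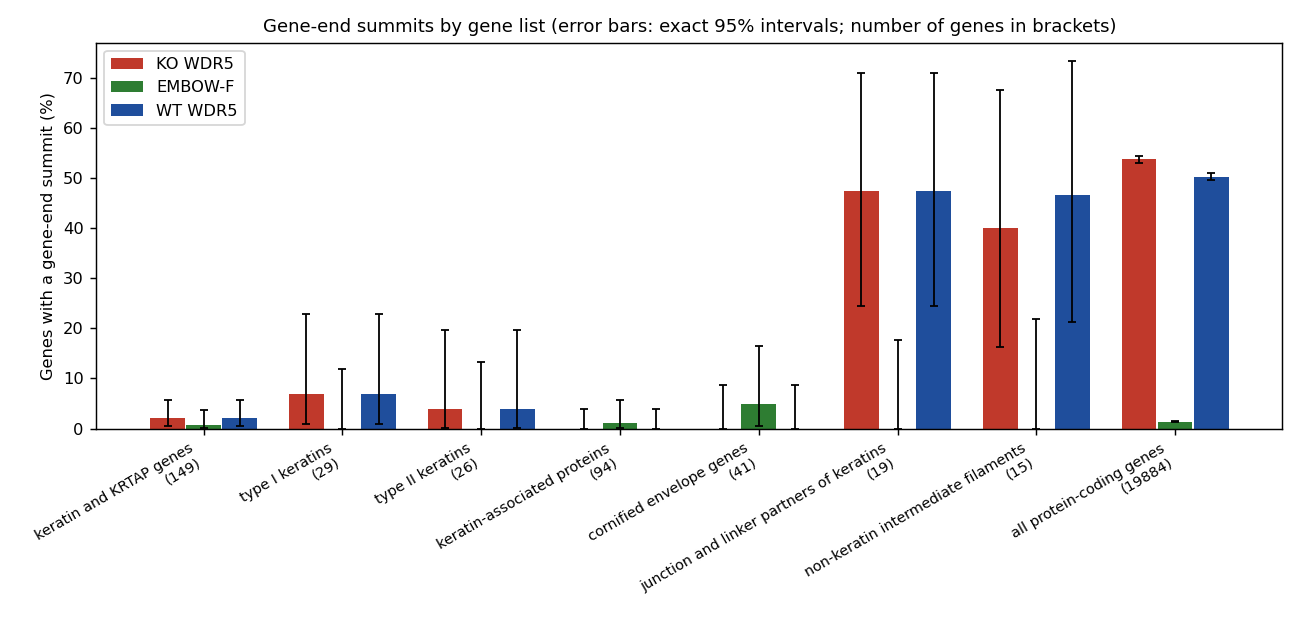
Share of genes with a summit within 1 kb of a gene end (y axis, %) for 8 gene lists (x axis, number of genes in brackets) in KO WDR5, EMBOW-F and WT WDR5, with exact 95% intervals as error bars. The bars for the 149 keratin and KRTAP genes stand at 2.01% in KO and 2.01% in WT, and those for all protein-coding genes at 53.8% and 50.3%.

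KRT8 and KRT18 stand at the upper end of the chromosome 12 cluster, and in the RefSeq table their ends overlap. KRT8 spans 52897191 to 52949860 (hg38, 52670 bp, 4 RefSeq transcripts) and KRT18 spans 52948855 to 52952906 (4052 bp, 2 RefSeq transcripts), so that 1006 bp belong to both genes. The KO summit lay at 52949167, which is 312 bp inside the lower end of KRT18 and 693 bp inside the upper end of KRT8. The WT summit lay at 52949267, which is 412 bp inside KRT18 and 593 bp inside KRT8. Both summits fell in the stretch common to the genes, 100 bp from each other, and therefore cannot be assigned to KRT8 or to KRT18. Both stood in the lower part of their lists. The KO summit had a −log10 q of 3.73 and rank 15392 of 21055, and the WT summit had a −log10 q of 4.15 and rank 12496 of 17660. Ranks from lists of different lengths do not measure a difference between genotypes.

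KRT8 also held a KO summit with no WT summit near it. It lay inside the gene at 52904654, 7463 bp from the lower end, with a −log10 q of 3.38 and rank 16318, and the nearest WT summit was 44613 bp away. Whether a RefSeq transcript of KRT8 starts near it was not examined. It was the only KO summit inside a cluster without a WT summit within 500 bp. With 1 library per genotype and a score this low, the absence of a WT call is not shown to be a difference between the genotypes. EMBOW-F summits were far from both genes, the nearest being 1865684 bp from KRT18.

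**Figure D2:**
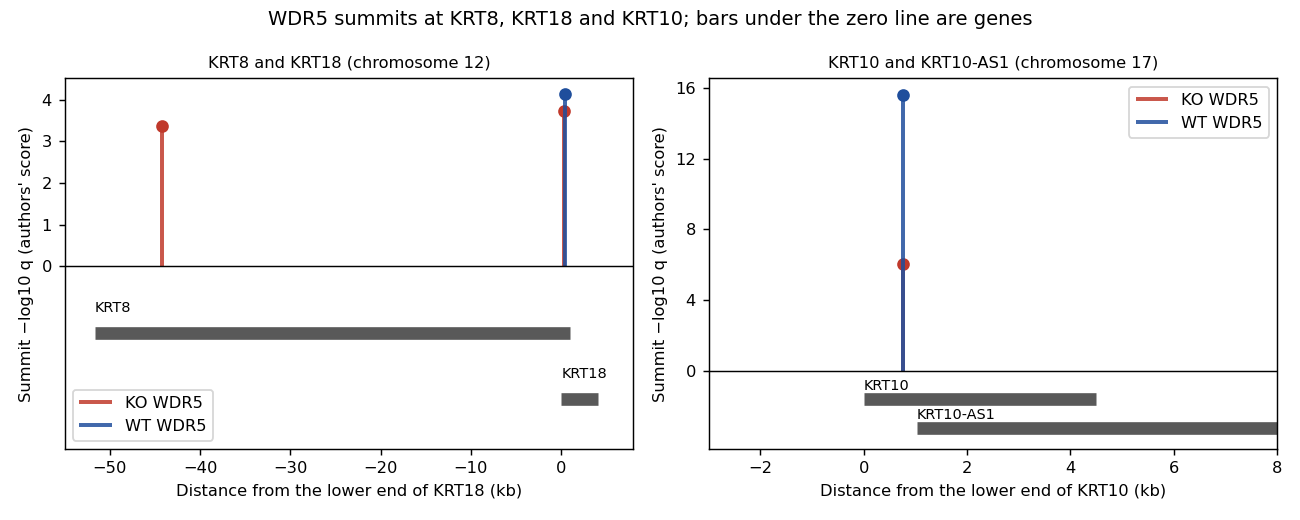
WDR5 summits of KO (red) and WT (blue) cells at KRT8 and KRT18 on chromosome 12 (left) and at KRT10 and KRT10-AS1 on chromosome 17 (right). The x axis is the distance in kb from the lower end of KRT18 or KRT10, the y axis is the authors' −log10 q, and grey bars are genes. The shared KRT8 and KRT18 summits reach 3.73 in KO and 4.15 in WT, and the KRT10 summits 6.07 in KO and 15.6 in WT.

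The start site used for KRT8 from the RefSeq promoter table is 52926469, on the minus strand. KRT8 has 4 RefSeq transcripts, and only this start was used, so the distance of the summits from any other KRT8 start was not examined. The window from 250 bases before to 50 bases after that start is shown because neither the shared summits nor the KO summit inside KRT8 fall in it. The nearest KO summit lay 21815 bp and the nearest WT summit 22798 bp from the start. Here and below, sequences run 5′ to 3′ along the gene's strand, come from RefSeq on GRCh38.p14, and carry in capitals each CG dinucleotide and each TATAAA. The KRT8 window (chr12:52926420-52926719, minus strand) holds 2 CG dinucleotides, no TATAAA and 50.7% G or C.
KRT8: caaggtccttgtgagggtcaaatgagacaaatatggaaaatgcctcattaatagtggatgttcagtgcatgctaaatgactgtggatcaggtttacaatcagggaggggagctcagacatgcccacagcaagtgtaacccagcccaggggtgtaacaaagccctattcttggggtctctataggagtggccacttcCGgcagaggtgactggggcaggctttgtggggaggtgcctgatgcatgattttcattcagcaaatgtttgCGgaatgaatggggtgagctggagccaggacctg

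KRT10 encodes a type I keratin of the upper epidermal layers. It carried the strongest WDR5 summits of the set in both genotypes. The gene spans 40818117 to 40822614 on chromosome 17 (4498 bp, minus strand), so its lower end is the 3′ end. The KO summit at 40818884 had a −log10 q of 6.07 and rank 11006, in the upper 52.3% of its list. The WT summit at 40818872 had a −log10 q of 15.6 and rank 2607, in the upper 14.8% of its list. The summits were 12 bp apart, 767 bp (KO) and 755 bp (WT) inside the 3′ end of KRT10. From the KRT10 start site they were 3730 bp (KO) and 3742 bp (WT) away.

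A non-coding gene begins next to these summits. KRT10-AS1, a long non-coding RNA gene transcribed antisense to KRT10, starts at 40819145 on the plus strand, inside KRT10. The KO summit lay 261 bp and the WT summit 273 bp before that start. The summits were thus closer to the start of KRT10-AS1 than to that of KRT10, and lay just outside the window of 300 bases around the KRT10-AS1 start. Which of the genes the summits belong to cannot be told apart from their positions.

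The windows of KRT10-AS1 (chr17:40818895-40819194, plus strand) and KRT10 (chr17:40822565-40822864, minus strand) are shown because the summits lay beside the first and away from the second. The KRT10-AS1 window has 54 CG dinucleotides and 76.7% G or C. The KRT10 window has 1 CG dinucleotide and 37.7% G or C, with TATAAA 29 bases before the start.
KRT10-AS1: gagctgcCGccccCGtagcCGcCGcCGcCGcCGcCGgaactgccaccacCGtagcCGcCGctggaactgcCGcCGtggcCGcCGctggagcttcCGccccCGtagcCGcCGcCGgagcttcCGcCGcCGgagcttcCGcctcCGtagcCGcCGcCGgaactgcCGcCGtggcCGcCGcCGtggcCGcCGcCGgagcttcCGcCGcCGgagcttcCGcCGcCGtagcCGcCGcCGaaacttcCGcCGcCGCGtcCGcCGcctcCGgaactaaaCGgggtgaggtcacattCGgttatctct
KRT10: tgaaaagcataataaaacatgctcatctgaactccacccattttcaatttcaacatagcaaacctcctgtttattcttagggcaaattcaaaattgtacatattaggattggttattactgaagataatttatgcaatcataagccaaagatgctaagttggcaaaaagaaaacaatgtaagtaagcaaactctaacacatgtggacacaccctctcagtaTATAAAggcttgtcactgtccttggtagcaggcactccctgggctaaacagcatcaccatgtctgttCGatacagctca

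The other keratins were far from any WDR5 summit. KRT222 was the nearest gene outside the 1 kb limit, at 6467 bp from a KO summit and 6500 bp from a WT summit, both of which lay at the neighbouring gene SMARCE1, which encodes a subunit of the SWI/SNF remodelling complex. No keratin or KRTAP gene had its nearest WDR5 summit between 767 bp and that distance. KRT7, a type II keratin of simple epithelia, was 162970 bp from a KO summit and 163386 bp from a WT summit. KRT19, a type I keratin of simple epithelia, was 160798 bp (KO) and 137457 bp (WT) away, and KRT20, an intestinal keratin, 57005 bp (KO) and 57017 bp (WT) away. Of the 5 keratins of simple epithelia (KRT7, KRT8, KRT18, KRT19 and KRT20), KRT8 and KRT18 were the marked ones in both genotypes.

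Keratins of stratified epithelia, of the inner root sheath and of hair were marked in 1 case, KRT10. Of the 16 keratins of stratified epithelia, 1 was marked in KO and 1 in WT, and of the 17 hair keratins none was marked in either genotype, nor were any of the 8 inner root sheath keratins. KRT5, the type II keratin of basal cells, was 384260 bp from the nearest KO summit and 428873 bp from the nearest WT summit. Its partner KRT14 was 102211 bp (KO) and 78870 bp (WT) away. KRT1, the partner of KRT10, was 224247 bp (KO) and 268860 bp (WT) away, so the marked KRT10 had an unmarked partner. The hair keratin KRT31 was 291498 bp (KO) and 268157 bp (WT) away. By type, 2 of 29 type I keratins and 1 of 26 type II keratins were marked in KO, and likewise in WT.

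None of the 94 KRTAP genes was marked by WDR5 in KO (0 to 3.85%) or in WT (0 to 3.85%). KRTAP5-1, an ultrahigh-sulfur gene on chromosome 11, was the nearest, at 9637 bp from a KO summit and 11488 bp from a WT summit. The farthest was KRTAP24-1, a high-sulfur gene on chromosome 21, at 815924 bp from a KO summit and 815919 bp from a WT summit. All but 14 KRTAP genes lay over 100 kb from a WDR5 summit, since 80 of 94 did so in KO and 80 of 94 in WT.

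Over the whole set, the median distance from a gene end to the nearest summit was 244028 bp in KO and 244444 bp in WT. Over all protein-coding genes the medians were 673 bp in KO and 956 bp in WT. Distances over 100 kb were found for 118 of 149 genes in KO (79.2%) and 119 in WT (79.9%), against 13.2% and 15.8% of all protein-coding genes. In KO, 2 genes lay between 1 and 10 kb from a summit and 26 between 10 and 100 kb. In WT, those bins held 1 and 26 genes.

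**Figure D3:**
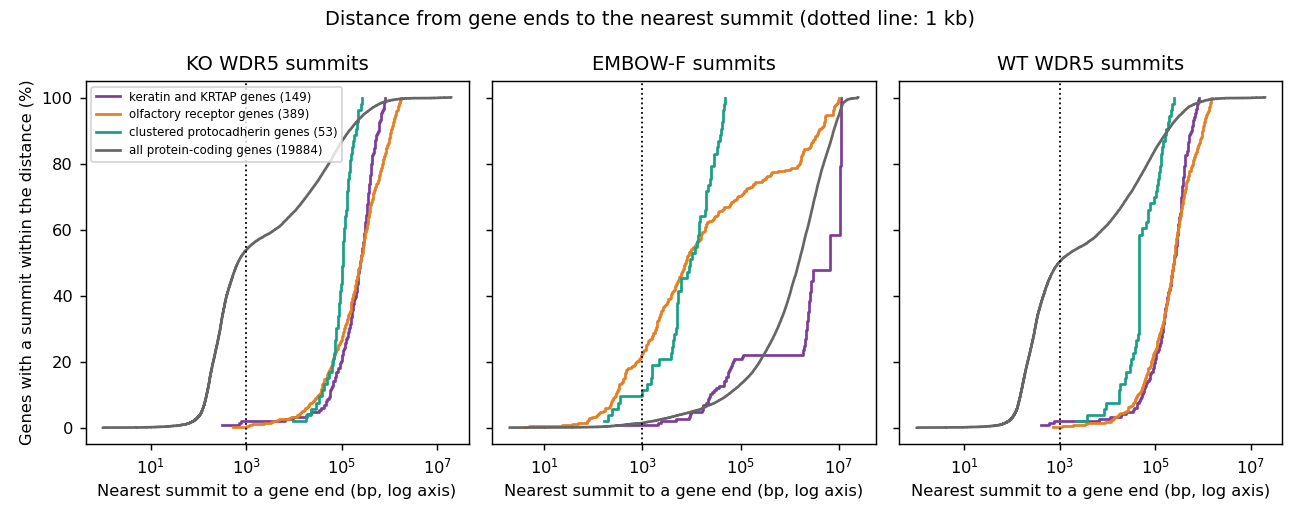
Cumulative share of genes (y axis, %) against the distance from a gene end to the nearest summit (x axis, bp on a log axis) for KO WDR5, EMBOW-F and WT WDR5 summits; curves are keratin and KRTAP, olfactory receptor, clustered protocadherin and all protein-coding genes, and the dotted line marks 1 kb. In the WDR5 panels the keratin and KRTAP curve (149 genes) stays at 2.01% at 1 kb, while the curve of all 19884 protein-coding genes stands at 53.8% in KO and 50.3% in WT.

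Other gene families in clusters had like shares for WDR5 and unlike ones for EMBOW-F. Olfactory receptor genes were marked by WDR5 in 1 of 389 cases in KO and 1 of 389 in WT, and clustered protocadherin genes in none of 53 in KO and none of 53 in WT (0 to 6.72% each). Their median distances to a WDR5 summit were 245022 bp (KO) and 245046 bp (WT) for olfactory receptors, and 105789 bp (KO) and 44728 bp (WT) for protocadherins. EMBOW-F marked 0.671% of keratin and KRTAP genes (0.0170 to 3.68%), against 22.4% of olfactory receptor genes (18.3 to 26.8%) and 11.3% of clustered protocadherin genes (4.27 to 23%). The keratin share was the lowest of these, and its interval did not overlap those of the other families. These intervals take genes as independent, but neighbouring genes share the same gaps between EMBOW-F summits. Among the keratin clusters described below, only the lower chromosome 21 cluster, with 33 genes, held EMBOW-F summits. The lack of overlap therefore does not by itself set the families apart. The share over all protein-coding genes, 1.40%, lay inside the keratin interval and below the intervals of the other families. The keratin share was thus not shown to be low against all genes. Of the keratin and KRTAP genes, 62 lay on chromosome 17, which carried 78 EMBOW-F summits (0.939 per Mb). Whether chromosome position accounts for the difference between families was not tested.

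Grouping neighbouring genes at most 500 kb apart gave 6 clusters, which held all 149 genes in 2.84 Mb, or 52.5 members per Mb. The clusters are gene-dense. The chromosome 17 cluster (40654665 to 41624575) held 62 members at 63.9 per Mb, against 13.9 protein-coding genes per Mb over that chromosome. The chromosome 12 cluster (52168996 to 52952906) held 27 members at 34.4 per Mb, against 7.68 per Mb. The chromosome 21 clusters (30281309 to 31038476 and 44538981 to 44698044) held 33 and 16 members at 43.6 and 101 per Mb, against 5.10 per Mb. The chromosome 11 clusters (1584342 to 1697755 and 71527267 to 71582875) held 6 and 5 KRTAP5 genes.

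Pooled over the clusters, WDR5 summits were sparser than on the chromosomes that hold them. The 6 clusters together held 3 KO summits, or 1.06 per Mb (exact Poisson 95% interval 0.218 to 3.09), and 2 WT summits, or 0.704 per Mb (0.0853 to 2.54). The 4 chromosomes carried 9.39 KO summits and 7.79 WT summits per Mb. The Poisson intervals take summits as independent, but WDR5 summits were unevenly spaced. On chromosome 17 the median KO gap was 15513 bp, yet 9 gaps reached 870222 bp or more. The intervals are therefore likely too narrow. Taken singly, the chromosome 17 cluster lay below its chromosome, at 1.03 per Mb in KO (0.0261 to 5.74) against 16.6, and 1.03 in WT (0.0261 to 5.74) against 13.8. In the other 5 clusters the chromosome's value fell within the interval in both genotypes, so a lower rate was not detectable in them one by one. For the chromosome 12 cluster these were 2.55 per Mb in KO (0.309 to 9.22) against 8.17, and 1.28 in WT (0.0323 to 7.11) against 6.56. All 5 cluster summits have been named above, at KRT8, KRT18 and KRT10. The KRTAP clusters of chromosomes 11 and 21 held no WDR5 summit of either genotype. Of the 3 KO summits in the clusters, 2 had a WT summit within 500 bp, and both WT summits had a KO summit within 500 bp.

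**Figure D4:**
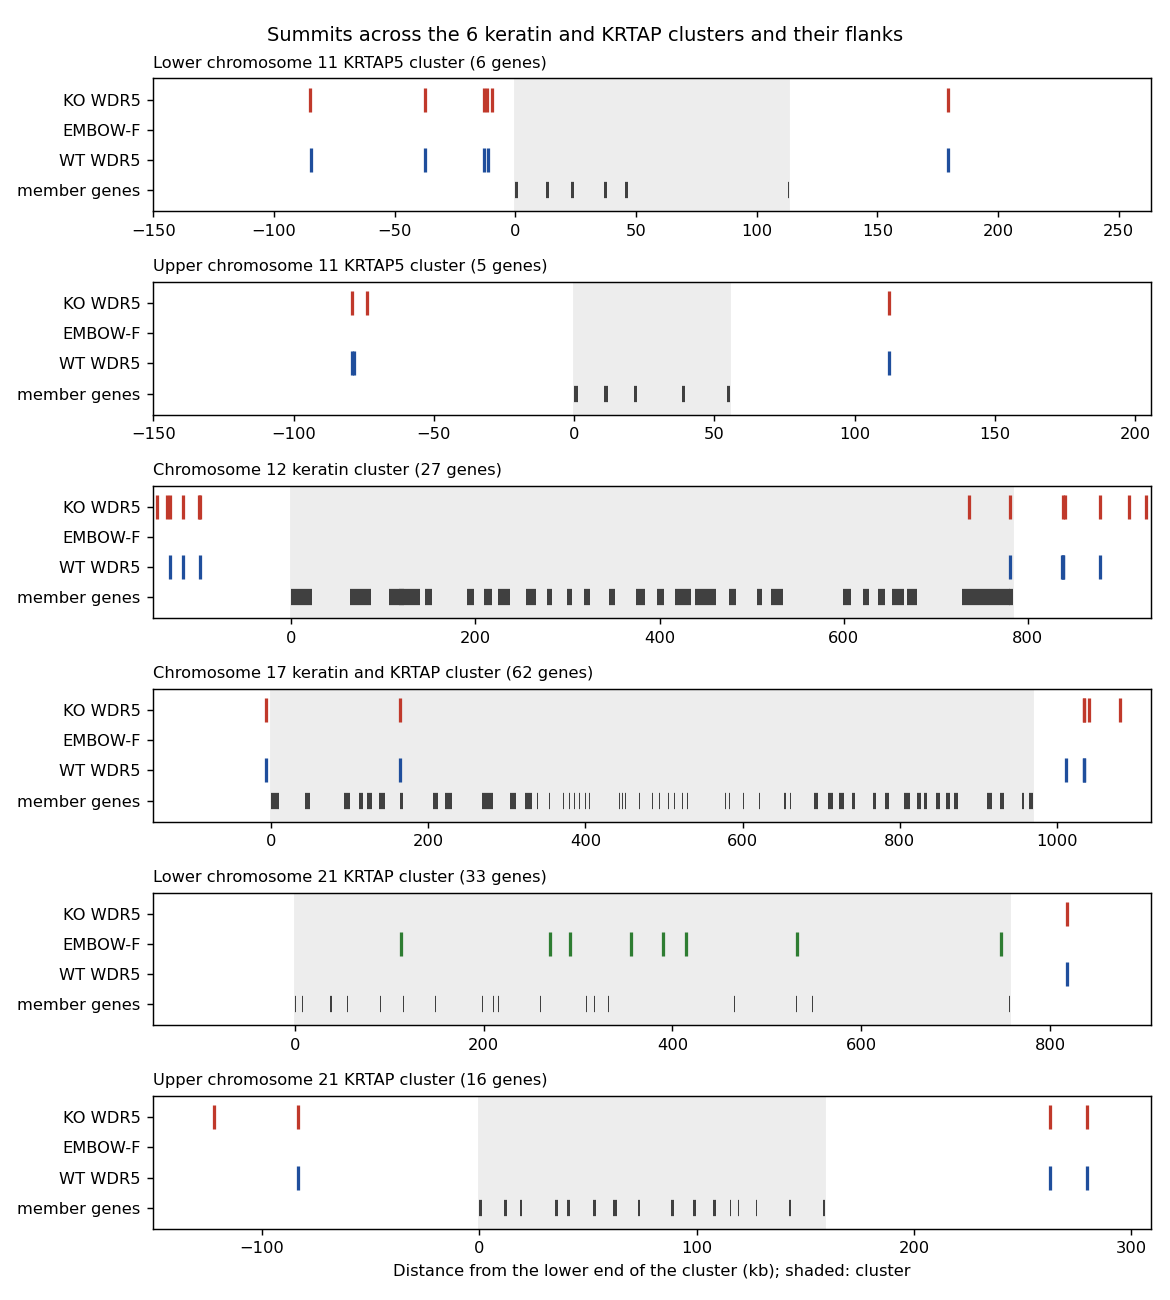
Summits (vertical ticks) of KO WDR5, EMBOW-F and WT WDR5 and the member genes (dark bars) across the 6 clusters (shaded) and their surroundings; the x axis is the distance in kb from the lower end of each cluster. WDR5 ticks stand outside the shaded spans except at the upper end of the chromosome 12 cluster and at KRT10 on chromosome 17, and all 8 EMBOW-F ticks lie in the lower chromosome 21 cluster.

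WDR5 summits were more frequent beside the clusters, though not on every side. The 100 kb on either side of each cluster held 19 KO summits, or 15.8 per Mb (9.53 to 24.7), and 19 WT summits, or 15.8 per Mb (9.53 to 24.7). Both intervals lay above those of the pooled clusters, though they too take summits as independent. The flank below the lower chromosome 21 cluster and the flank above the upper chromosome 21 cluster held no WDR5 summit of either genotype, and the nearest below the lower one was 982083 bp (KO) and 982049 bp (WT) away. Of 22 other protein-coding genes that reached into these flanks, 12 were marked in KO and 10 in WT. These are near the shares over all protein-coding genes, 53.8% in KO and 50.3% in WT. Beyond KRT18 the next gene was EIF4B, a translation initiation factor, at 318 bp (KO) and 226 bp (WT) from a summit. Beyond KRT17 it was EIF1, also a translation initiation factor, at 221 bp (KO) and 191 bp (WT). TSPEAR is the only other protein-coding gene that overlaps a cluster, spanning the KRTAP10 and KRTAP12 genes of chromosome 21, and it was not marked in KO (42220 bp) or in WT (42264 bp).

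In 3 of the clusters the stretches without a WDR5 summit were among the longer ones of their chromosomes, though not the longest. Gaps were counted by number, and each count includes the cluster's own gap. Long gaps cover more of a chromosome than their number shows, and a long span with few summits must lie in long gaps. The counts therefore describe gap lengths and do not measure how unusual a cluster is. In the chromosome 17 cluster, the longest was 870222 bp in KO and 846893 bp in WT, where 9 of 1382 KO gaps and 10 of 1149 WT gaps on the chromosome were at least as long. The median gap on chromosome 17 was 15513 bp in KO and 19119 bp in WT. In the chromosome 12 cluster the longest was 834381 bp in KO (26 of 1087 gaps at least as long) and 879410 bp in WT (36 of 873). The lower chromosome 21 cluster lay within a gap of 1799648 bp in KO (4 of 214) and 1799609 bp in WT (5 of 201). The other clusters stood in shorter gaps. For the upper chromosome 21 cluster the gap was 345968 bp in KO (21 of 214) and 346048 bp in WT (23 of 201). For the lower chromosome 11 cluster it was 188943 bp in KO (162 of 1040) and 190892 bp in WT (146 of 865), and for the upper one 186242 bp in KO (167 of 1040) and 190739 bp in WT (147 of 865).

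EMBOW-F summits occurred in 1 of the 6 clusters. The lower chromosome 21 cluster held 8 of them, or 10.6 per Mb (4.56 to 20.8), against 11.2 per Mb over that chromosome, a value inside the interval. The chromosome 12 cluster held none, against 27.5 per Mb over the chromosome, and its upper limit was 4.71 per Mb. That limit takes summits as independent, but the cluster lay within a gap of 7301656 bp between EMBOW-F summits. Of 3669 such gaps on chromosome 12, 2 were at least as long, and the median gap was 4032 bp. The lack of summits was thus not confined to the cluster. The chromosome 17 cluster held none, on a chromosome with 78 EMBOW-F summits in all (0.939 per Mb), and lay within a gap of 24996923 bp. The upper chromosome 11 cluster lay within a gap of 13831378 bp. No EMBOW-F summit lay in the flanks of any cluster, and no cluster held EMBOW-F and WDR5 summits together.

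KRTAP8-1, a high glycine-tyrosine gene, spans 30812697 to 30813274 on chromosome 21 (578 bp, minus strand). Its EMBOW-F summit at 30812983 lay inside the gene, 286 bp from the 3′ end and 291 bp from the start. Its −log10 q was 3.86, and its rank of 27722 of 93143 was shared with other summits of the same score. The nearest WDR5 summits were 285600 bp (KO) and 285595 bp (WT) from the start of the gene. The next EMBOW-F distances were 2070 bp at KRTAP13-1, 2339 bp at KRTAP20-2 and 4906 bp at KRTAP20-3, the last pair sharing a summit. The KRTAP8-1 window (chr21:30813225-30813524, minus strand) is shown as the promoter next to the single EMBOW-F gene-end summit, with TATAAA 29 bases before the start and 3 CG dinucleotides.
KRTAP8-1: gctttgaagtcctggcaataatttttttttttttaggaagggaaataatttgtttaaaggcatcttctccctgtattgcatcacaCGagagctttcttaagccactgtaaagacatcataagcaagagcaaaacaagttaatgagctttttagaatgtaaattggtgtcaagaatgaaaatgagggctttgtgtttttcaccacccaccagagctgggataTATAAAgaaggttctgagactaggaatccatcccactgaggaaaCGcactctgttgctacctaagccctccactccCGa

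The promoters of the set were compared in their makeup, which the choice by symbol did not use. A promoter window of 300 bases was found for 114 of the 149 genes, among them 34 KRT and 80 KRTAP genes, and for 15843 protein-coding genes. KRT18 was not among them. The median number of CG dinucleotides was 2 in keratin and KRTAP promoters (range 0 to 13), against 22 in all protein-coding promoters, and the median G or C content was 43.7%, against 62.7%. TATAAA on the gene's strand was present in 79 of the 114 windows (69.3%, 60 to 77.6%), against 6.91% of all protein-coding promoters. On either strand (TATAAA or TTTATA) it was present in 73.7%, against 9.63%. It began 20 to 40 bases before the start in 49 windows (43.0%, 33.7 to 52.6%), against 3.64%, and 48 of the 49 lay 26 to 36 bases before it. GGGCGG or its reverse CCGCCC, the core of the GC box, was present in 6.14% (2.5 to 12.2%), against 58.5%. CACGTG, the E-box letters, which read the same on either strand, was present in 2.63% (0.546 to 7.5%), against 8.88%. These pooled values come mostly from KRTAP windows. GGGCGG or CCGCCC was in 17.6% of KRT windows (6.76 to 34.5%) and 1.25% of KRTAP windows (0.0316 to 6.77%). TATAAA on the gene's strand was in 52.9% (35.1 to 70.2%) and 76.2% (65.4 to 85.1%). At 20 to 40 bases before the start it was in 44.1% and 42.5%. Low CG and GC content were not particular to keratins. Olfactory receptor promoters (314) had a median of 1 CG dinucleotide and 37.7% G or C, with GGGCGG or CCGCCC in 0.955% (0.197 to 2.77%) and CACGTG in 1.59% (0.519 to 3.68%). TATAAA on the gene's strand was present in 20.4% of them (16.1 to 25.3%), and 20 to 40 bases before the start in 1.59% (0.519 to 3.68%). A match describes letters in a window and does not show a bound factor.

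**Figure D5:**
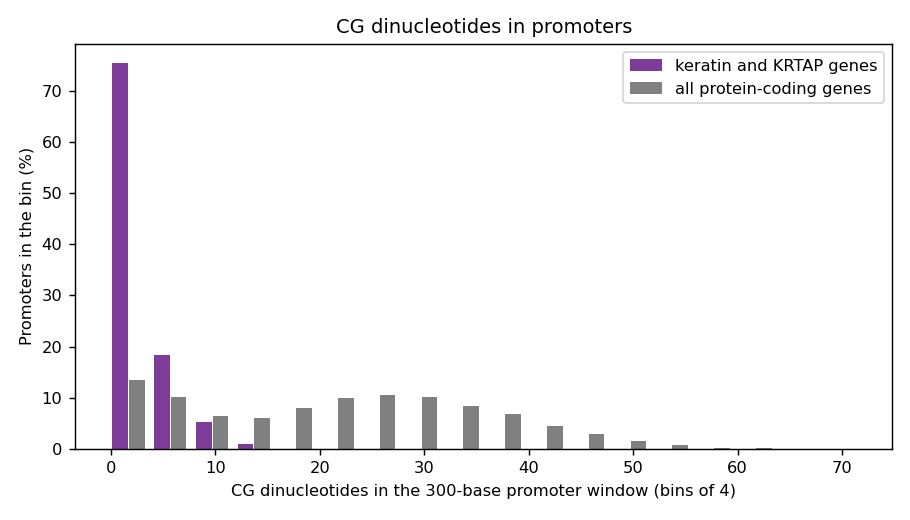
Share of promoter windows (y axis, %) by the number of CG dinucleotides in 300 bases (x axis, bins of 4) for 114 keratin and KRTAP promoters and 15843 protein-coding promoters. Of the keratin and KRTAP promoters, 75.4% fall in the lowest bin (0 to 3), and none lies above 13.

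The position of TATAAA before the start is shown for the first such gene of 5 clusters, KRT10 and KRTAP8-1 aside, with the last 60 bases before the start of each. All are on the minus strand. KRTAP5-3 (chr11:1608464-1608523) is an ultrahigh-sulfur gene and holds TATAAA a second time, KRT71 (chr12:52553146-52553205) encodes an inner root sheath keratin, KRT24 (chr17:40703753-40703812) encodes a type I keratin, and KRTAP24-1 (chr21:30282951-30283010) and KRTAP10-3 (chr21:44558796-44558855) are high-sulfur genes. No WDR5 summit lay within 33758 bp (KO) or 35609 bp (WT) of any of these starts.
KRTAP5-3: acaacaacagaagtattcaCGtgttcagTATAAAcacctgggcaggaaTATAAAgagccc
KRT71: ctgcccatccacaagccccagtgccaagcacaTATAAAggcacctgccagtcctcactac
KRT24: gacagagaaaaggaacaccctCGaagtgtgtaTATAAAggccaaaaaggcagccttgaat
KRTAP24-1: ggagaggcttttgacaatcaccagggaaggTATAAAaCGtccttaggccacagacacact
KRTAP10-3: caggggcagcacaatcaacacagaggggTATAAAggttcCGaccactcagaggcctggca

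Other genes with few CG dinucleotides were also marked by WDR5 less often than the rest, and the keratin share lay below theirs at up to 13 CG dinucleotides. Among genes whose window held at most 13 CG dinucleotides, 2 of 114 keratin and KRTAP genes were marked in KO (1.75%, 0.213 to 6.19%), against 863 of 5114 other protein-coding genes (16.9%, 15.9 to 17.9%). In WT these were 2 of 114 (1.75%, 0.213 to 6.19%) and 783 of 5114 (15.3%, 14.3 to 16.3%). Above 13, 74.6% of genes were marked in KO and 70.3% in WT. The stratum up to 13 was not matched in CG content within itself. At most 2 CG dinucleotides were held by 66 of its 114 members, against 1476 of its 5114 other genes. Whether this accounts for the difference in shares was not tested. With at most 2 CG dinucleotides the intervals overlapped, at 3.03% of 66 keratin and KRTAP genes in KO (0.369 to 10.5%) against 6.78% of 1476 others (5.55 to 8.18%), and 3.03% in WT (0.369 to 10.5%) against 6.71% (5.48 to 8.11%). With TATAAA 20 to 40 bases before the start, 1 of 49 was marked in KO (2.04%, 0.0517 to 10.9%) against 27.3% of 527 others (23.6 to 31.3%), and 1 of 49 in WT (2.04%, 0.0517 to 10.9%) against 23.9% (20.3 to 27.8%). The TATAAA stratum was not held to any CG level. The marked members in all of these counts were KRT8 and KRT10, KRT10 alone with TATAAA. The nearest summits lay far outside the windows by which these genes were grouped. They were 21815 bp (KO) and 22798 bp (WT) from the KRT8 start used here, and 3730 bp (KO) and 3742 bp (WT) from the KRT10 start. KRT8 was grouped by 1 start, and other starts of its 4 RefSeq transcripts were not examined. The strata were chosen after the values were seen, and no test was made.

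The share of windows holding a stretch also found in another promoter was near that of all genes, but it differed within the set. Of the 114 windows, 28 (24.6%) shared at least 1 stretch of 31 bases with the promoter of another gene, against 24.9% of all protein-coding promoters. These were 26 of 80 KRTAP windows (32.5%) and 2 of 34 KRT windows (5.88%). Windows of neighbouring genes that overlap on the genome were not set apart. The shares may therefore count the same DNA in overlapping windows, and do not measure duplicated sequence alone. None shared 50% or more of its stretches, against 17.7% of all protein-coding promoters. KRT8 and KRT18 also have many pseudogenes. Of 52 KRT8 pseudogenes 1 was marked in KO (1.92%) and 1 in WT (1.92%), KRT8P45 in both, against 2.51% and 2.09% of all pseudogenes. Of 68 KRT18 pseudogenes none was marked in either genotype (0 to 5.28% each). EMBOW-F marked 8 of the 52 KRT8 pseudogenes (15.4%, 6.88 to 28.1%) and 6 of the 68 KRT18 pseudogenes (8.82%, 3.31 to 18.2%). In all, EMBOW-F marked 16 of 170 keratin and KRTAP pseudogenes (9.41%, 5.48 to 14.8%), against 5.62% of all pseudogenes.

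Genes that work with keratins were marked more often than the keratins. Of 19 genes listed as junction or linker partners of keratins, 9 were marked in KO and 9 in WT, not all the same ones. JUP was marked in KO only, at 1181 bp from a WT summit, and DSP in WT only, at 1120 bp from a KO summit. Unmarked in both genotypes were DSC1, DSG1, DSG3, DSG4, PKP1, PKP3, PPL, EVPL and EPPK1. The highest-ranked of those marked in KO were DSC3 (rank 460 in KO, 1095 in WT), a desmosomal cadherin, and PNN (1308 in KO, 1937 in WT). PNN was counted by the list alone, and its other roles were not considered. Next came the desmosomal cadherins DSC2 (4295 in KO, 3340 in WT) and DSG2 (5370 in KO, 1436 in WT). Of 15 intermediate filament genes other than keratins, 6 were marked in KO and 7 in WT, among them SYNM (synemin, rank 1781 in KO and 3679 in WT) and VIM (vimentin, 3071 in KO and 2109 in WT). INA was marked in KO only, and LMNB1 and NEFL in WT only. Shares of 47.4% (24.4 to 71.1%) in KO and in WT for the first group, and of 40% (16.3 to 67.7%) in KO and 46.7% (21.3 to 73.4%) in WT for the second, are near those of all protein-coding genes. Genes of the cornified envelope, the cross-linked shell of the outer epidermis, resembled the keratins, with none of 41 marked in KO and none in WT (0 to 8.60% each). All but TGM1, TGM3 and TGM5 lie on chromosome 1, where many share the same nearest WDR5 summit. The 41 genes are therefore not independent draws, and the interval is too narrow. EMBOW-F marked 2 of these 41, SPRR1A and SPRR3.

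The authors' deposited table of new WDR5 targets that depend on EMBOW lists 18665 transcripts. No transcript in the authors' deposited table overlaps any of the 6 clusters, so none of the 149 genes was overlapped, against 11.5% of all protein-coding genes.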

How the data were processed

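ChIP-seq summit lists of EMBOW KO WDR5, EMBOW-F and WT WDR5 were used, each from 1 library, on hg38. Bowtie2 2.4.5, MACS2 2.2.7.1 and deepTools 3.5.1 are named in the submitters' processing notes, with no role or setting. The deposited lists hold 1 bp summits with a −log10 q value by the authors; that unit was read from the values, whose lowest entry in each list lay at or just above 1.30, the −log10 of a q of 0.05. Control libraries and pooling were not given in the sources used here. Because the EMBOW-F list is tied to no single sample, it was matched to the FLAG precipitation by its name. The transcript list was used for overlap only, and 1 line whose chromosome name had lost letters was repaired.

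Gene positions came from RefSeq (GRCh38.p14), without genes on scaffolds. The design had foreseen the strand as an alternative; it was known for 114 of 149 members. Distances ran from both gene ends to the nearest summit, in Python 3.11.15 with numpy 2.4.6, pandas 2.3.3, scipy 1.17.1 (exact Clopper-Pearson and Poisson intervals, 95%) and matplotlib 3.10.9. Distance and partner steps were tested on simulated data. No p-values were computed. Members, gene lists and promoter measures were chosen with earlier results of these data known. Genes were named by rule: KRT8 and KRT18, all marked members, the nearest unmarked ones, and up to 6 partner genes ranked highest in KO; other keratins were named for their role after values were seen. Alternatives covered the window, the q threshold, list length, cluster limits, partner distance and 5′ ends only. H3K4me3 and input libraries were not analysed here.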

Additional observations from a re-analysis of the deposited data

How the results depend on the processing

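With a window of 500 bp, 1 member was marked in KO and 1 in WT, KRT18 in both, so that the KRT8 and KRT18 calls over the 3 lists fell to 2, against 4 in the main analysis. With a q of 1e-05 or less, 1 member was marked in KO and 1 in WT, KRT10 in both, the KRT8 and KRT18 calls were 0 and EMBOW-F marked 0 members. At that q the clusters held 1 KO, 0 EMBOW-F and 1 WT summit, and 100% of KO cluster summits had a WT partner. With 5′ ends only, 1 of 114 members was marked in KO and 1 in WT, KRT8 in both, the KRT8 and KRT18 calls were 2 because KRT18 has no strand in the table, and KRT10 dropped out. Over 15843 protein-coding genes of known strand, 54.2% were marked in KO, 0.972% in EMBOW-F and 50.9% in WT. A window of 5 kb raised the EMBOW-F count to 4. Clusters widened by 100 kb held 22 KO and 21 WT summits, by construction, since the flanks came in. Other values under these alternatives, and all values with 2 kb windows, other partner distances or gaps of 200 kb, stayed within 1.5 times the main count or within the main interval, and no alternative gave a member marked in 1 genotype only. Shortening the KO list to the 17660 summits of WT left the WDR5 counts as they were; EMBOW-F was not shortened, so its counts were not tested against list length. No replicate could be left out, since each group is 1 library. No paired analysis was possible because each group has 1 library and no result comes from a test. The lists give no depth, so how weak a summit each could have detected is unknown.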
